A study of Mus musculus with 4 samples.

Results

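Interferon-stimulated antiviral effector genes encode the proteins with which a cell blocks the entry, copying and release of viruses. They are switched on when a type I or type III interferon binds its receptor, the receptor-bound kinases JAK1 and TYK2 become active, and a transcription factor complex that includes STAT2 and IRF9 binds the interferon-stimulated response element (ISRE) in promoters. Interferon gamma acts at another element, GAS, and several of the genes respond to both routes. Fibroblasts have the receptors for type I interferon and for interferon gamma and respond to these readily. The set described here held 39 such genes, listed by name with earlier results of these data known. All 39 were among the 23377 gene symbols of the count table. Their levels were compared between 2 groups of 2 libraries each.

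Sequencing covered polyadenylated RNA from mouse cancer-associated fibroblasts (CAFs), which are tumour-resident stromal cells, in 4 libraries. The group called resistant here carries the title RES4 and the phenotype of CAFs associated with resistant tumours, and the group called normal carries the title WTA and the phenotype of CAFs associated with normal tumours. The labels name no mouse strain, age, genotype, drug or sort for either group, so nothing more can be said of what the groups share. Library titles within a group differ only in the replicate number, so each group may come from 1 tumour or culture, and the p-values then cover no more than the scatter among these 4 libraries, part of which may be technical. Library totals ran from 2785936 to 5558541 reads. Levels are given as CPM, read counts divided by library size after TMM scaling (trimmed mean of M values), and differences as log2 fold changes, resistant minus normal, ± standard error (SE).

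The labelled cell type was checked against marker genes. Of 13 tested fibroblast markers 10 were higher in resistant tumour CAFs, and their summed level was 9357 to 10254 CPM in resistant and 4269 to 5223 CPM in normal tumour CAFs. Dcn, with the largest rise among the tested ones, had 243 and 346 reads in the resistant libraries and 3 and 1 in the normal ones. Lum, not tested, had 4 and 12 against 0 and 0. The 3 tested fibroblast markers that were not called were abundant in both groups. Mean levels of Col5a1, Acta2 and Postn were 548, 307 and 549 CPM in resistant and 544, 264 and 589 CPM in normal tumour CAFs. All 6 tested of 9 Schwann cell and neural crest markers were lower in resistant tumour CAFs, with sums of 9.91 to 10.3 CPM against 1107 to 1250 CPM. Both marker lists therefore moved with the groups that the antiviral genes are compared between; the part of these and the other markers named here in the differences below was not tested. In bulk RNA fewer cells of a type and less RNA per cell cannot be told apart. The immune cell markers Ptprc, Emr1, Aif1, Cd3e and Nkg7 had no read in any of the 4 libraries. Of 8 epithelial markers Epcam, Cdh1 and Krt5 had no read, whereas Krt19 rose by 3.09 ± 0.44 (adjusted p = 2.20e-04), from 6.44 and 6.40 to 45.7 and 63.9 CPM, and Krt14 had 0 and 0 against 12 and 15 reads. Of 7 endothelial markers Tie1 and Emcn had no read, and Egfl7 alone was tested and rose by 1.27 ± 0.38 (adjusted p = 0.0236), from 25.02 and 24.7 to 52.9 and 67.5 CPM. Over 10 myeloid markers in the table the sums were 21.7 to 29.4 CPM in resistant and 8.42 to 9.76 CPM in normal tumour CAFs, led by Cd68, Csf1r, Lyz2 and Cd14; Lyz2 rose by 3.07 ± 0.63 (adjusted p = 0.00263). Among 4 plasmacytoid dendritic cell markers only Il3ra passed the count filter, and it rose by 2.01 ± 0.51 (adjusted p = 0.00963), from 4.96 and 10.1 to 40.0 and 21.7 CPM, whereas Siglech had at most 2 reads in a library.

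Antiviral effector genes were higher in resistant tumour CAFs across nearly every role. Summed over the 39 genes, the level was 4470 and 3513 CPM in resistant replicates 1 and 2 and 757 and 826 CPM in normal replicates 1 and 2. Of the 38 genes that passed the filter on low counts, 34 rose (adjusted p under 0.05) and none fell; among all 12001 genes tested, 15.5% rose and 13.9% fell. The count for members in the lower direction was 0 with edgeR, DESeq2 and limma-voom alike, and none had a negative log2 fold change, so none was lower at an unadjusted p under 0.05 either. The 4 that did not pass were Ifit2, Isg15, Herc6 and Parp12. The median log2 fold change was 3.07 against -0.004 for all genes tested, and the middle 50% of the members lay between 2.06 and 4.07. Rises of at least 4-fold were seen in 30 members and of at least 16-fold in 10, where 8.73% and 3.25% of all genes rose that far. Tested against a 2-fold change in place of none (glmTreat), 30 members passed, against 8.88% of all genes. In 37 of the 38 both resistant libraries lay above both normal libraries, an arrangement that 31.9% of all genes tested had. The filter bears on these counts: 10 members reached the count minimum in the resistant libraries only, and so passed through the group where they were high. Of the 28 members that reached it in both groups 24 rose, against 11.6% of the 10292 genes that did so. As the members were chosen with earlier results of these data known, the shares of all genes describe the set and do not test it.

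**Figure D1:**
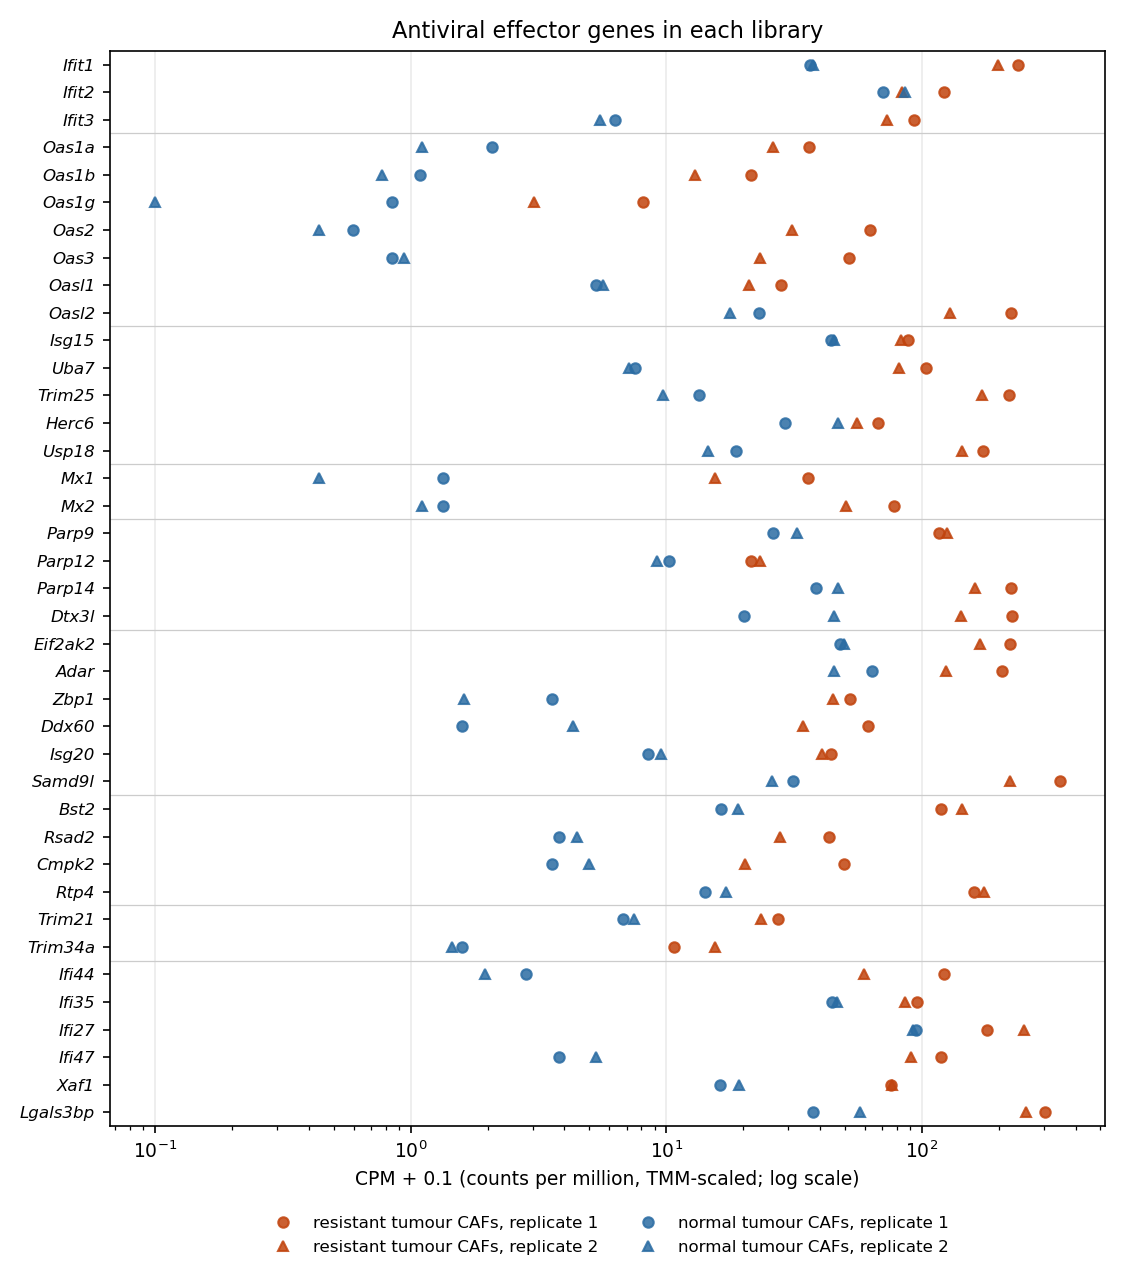
Level of each of the 39 genes in the 4 libraries, as CPM + 0.1 on a log axis, with genes grouped by role and the groups divided by lines. Red points are resistant and blue points normal tumour CAFs, circles replicate 1 and triangles replicate 2; the red points lie to the right of the blue ones in every row except Ifit2, and the lowest blue point is Oas1g, with 0 CPM in normal replicate 2.

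The Ifit proteins bind the foreign 5′ ends of viral RNA and block its translation. Ifit1 stood at 238 and 198 CPM in the resistant libraries and at 36.4 and 37.5 CPM in the normal ones. That is a rise of 2.56 ± 0.30 on the log2 scale (adjusted p = 6.16e-05), with the groups well apart and the normal replicates nearly equal. Ifit3 rose further, by 3.84 ± 0.43 (adjusted p = 4.22e-05), from 6.19 and 5.39 CPM to 92.8 and 73.0 CPM. Ifit2, which lies next to Ifit3 in the genome, did not pass the test. Its ranges overlapped, with 122 and 83.7 CPM in the resistant and 70.1 and 86.0 CPM in the normal libraries, and it differed by 0.39 ± 0.33 on the log2 scale (adjusted p = 0.423). Over 16 alternatives, its value stayed between 0.10 and 0.64 and never passed. Part of the Ifit3 reads could belong to its near copy Ifit3b, listed as I830012O16Rik, since 51.2% of the 50-base words in Ifit3 transcripts also occur in another gene's transcripts. That copy, named after its values were seen, had 130 and 114 reads in the resistant libraries and 6 and 15 in the normal ones.

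Oligoadenylate synthetases sense double-stranded RNA and make short adenylate chains that act as a second messenger. They held the widest fold of the set. Oas2 had 62.4 and 30.8 CPM in the resistant libraries and 0.496 and 0.337 CPM, or 2 reads each, in the normal ones. Its log2 fold change was 6.74 ± 0.67 (adjusted p = 2.01e-05). Oas3, its direct neighbour on the chromosome, followed with 51.7 and 23.1 CPM against 0.743 and 0.842 CPM and rose by 5.49 ± 0.63. For both genes the resistant replicates differed about as 2 to 1, and the normal libraries were near the limit of detection. Oas1a rose by 4.40 ± 0.55, from 1.98 and 1.01 to 36.1 and 26.1 CPM. Oas1b, which RefSeq lists as a transcribed pseudogene in the C57BL/6J reference, rose by 4.34 ± 0.61, from 4 reads in each normal library to 56 and 35 reads. Oas1g did not pass the low-count filter: 21 and 8 reads stood against 3 and 0, a ratio of pooled counts of 18.01 (95% counting interval 5.58 to 92.4). Reads of the Oas1 paralogs are uncertain, as 57.6% of the 50-base words of Oas1a and 45.7% of those of Oas1g occur in another Oas1 gene as well. The 2 synthetase-like genes moved less. Oasl2 rose by 3.11 ± 0.38, from 23.0 and 17.7 to 223 and 128 CPM, and Oasl1 by 2.18 ± 0.46, from 5.20 and 5.55 to 28.2 and 20.9 CPM. All 6 tested synthetase genes thus rose, each under all alternatives that tested it.

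ISG15 is a ubiquitin-like protein that is joined to newly made proteins by the E1 enzyme UBA7 and E3 ligases such as HERC6, and removed by USP18, which also shuts down signalling at the interferon receptor. In this small pathway the enzymes and the modifier moved unequally. Uba7 rose by 3.67 ± 0.41 (adjusted p = 4.41e-05), from 7.43 and 7.07 to 103 and 81.1 CPM. Usp18 rose by 3.26 ± 0.36, from 18.6 and 14.5 to 173 and 144 CPM. Trim25, an E3 ligase that acts on the RNA sensor RIG-I and itself carries out ISG15 ligation, rose by 4.10 ± 0.37 and had the smallest adjusted p of the members (1.11e-05), with 220 and 173 CPM against 13.4 and 9.59 CPM. Isg15 itself had 87.9 and 82.9 CPM in the resistant and 44.1 and 45.1 CPM in the normal libraries. Its replicates lay close together and its groups were apart, but the log2 fold change of 0.94 ± 0.34 missed the threshold (adjusted p = 0.0557). It fell on both sides over the alternatives, with 8 of 16 calling it, among them DESeq2 (adjusted p = 0.0411) and limma-voom (0.0457). The fits without resistant replicate 1 (log2 fold change 0.90) or resistant replicate 2 (0.98) also called it. Those without normal replicate 1 or normal replicate 2 did not. Herc6 stood at 67.3 and 55.8 against 29.0 and 47.0 CPM, differing by 0.69 ± 0.39 on the log2 scale (adjusted p = 0.212), and no alternative called it.

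**Figure D2:**
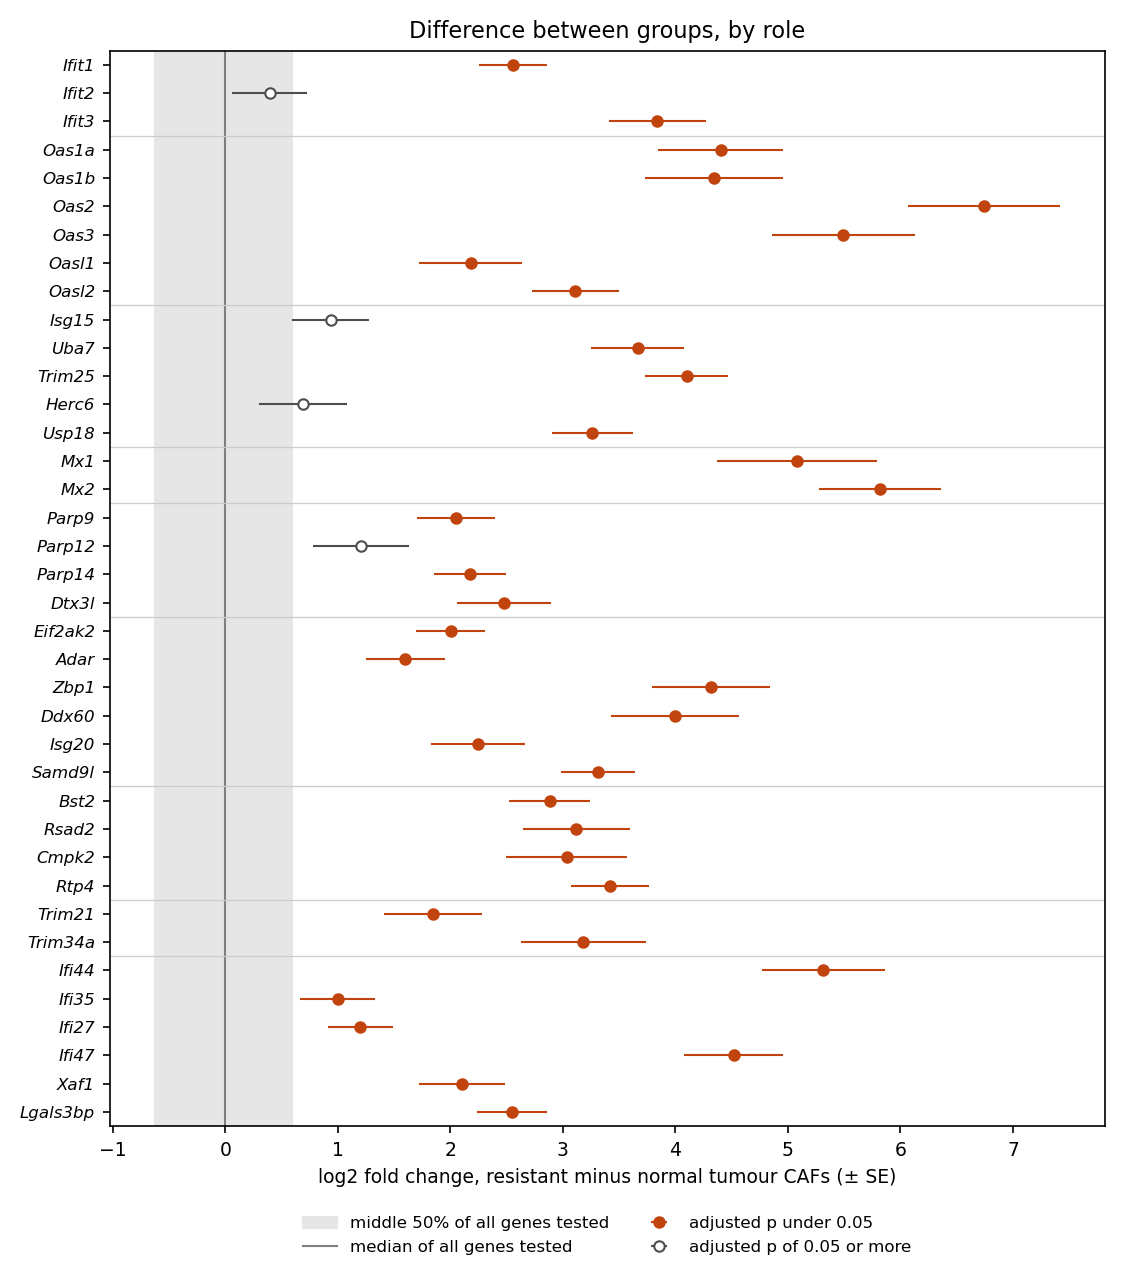
Log2 fold change (resistant minus normal) with its SE for the 38 tested genes, in the same order by role, over the median and the middle 50% of all 12001 genes tested. Filled red points passed the test; the 4 open points (Ifit2, Isg15, Herc6 and Parp12) did not, and Oas2 lies farthest right at 6.74.

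Mx proteins are dynamin-like GTPases that trap viral nucleocapsids, in mice Mx1 in the nucleus and Mx2 in the cytoplasm. Both were nearly silent in normal tumour CAFs. Mx2 rose from 5 and 6 reads (1.24 and 1.01 CPM) to 205 and 138 reads (78.0 and 50.6 CPM), or by 5.82 ± 0.54 on the log2 scale (adjusted p = 1.41e-05). Mx1 went from 5 and 2 reads to 94 and 42 reads, or 35.8 and 15.4 CPM, and rose by 5.08 ± 0.71 (adjusted p = 1.94e-04). Its value was 4.28 to 6.04 over the alternatives, all past the threshold, so the direction held while the size is loose.

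PARP9 and its partner DTX3L form a complex that joins ADP-ribose and ubiquitin; PARP14 and PARP12 are mono-ADP-ribosyltransferases. Parp14, Dtx3l and Parp9 lie side by side on chromosome 16. They rose by similar amounts, Parp14 by 2.18 ± 0.32, Dtx3l by 2.48 ± 0.42 and Parp9 by 2.05 ± 0.35. Parp14 went from 38.4 and 46.8 to 224 and 161 CPM. Dtx3l differed more between normal replicates, at 20.1 and 45.4 CPM, with 224 and 143 CPM in the resistant libraries. Parp9, at 117 and 125 CPM against 26.0 and 32.3 CPM, missed the threshold once normal replicate 1 was left out (adjusted p = 0.0524). Parp9 and Dtx3l transcripts overlap on opposite strands, and 7.71% of the 50-base words of Parp9 are shared with Dtx3l, so some of their reads cannot be told apart without strand. Parp12, on another chromosome, had 21.3 and 23.1 CPM against 10.2 and 9.09 CPM, which is 1.21 ± 0.43 on the log2 scale (adjusted p = 0.0509). It fell on both sides of the threshold over the alternatives, with 8 of 16 calling it.

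Effectors that act on RNA all rose. Eif2ak2 encodes PKR, the kinase that stops translation on sensing double-stranded RNA, and went from 47.6 and 49.7 to 221 and 169 CPM, a rise of 2.01 ± 0.31. Adar, the editor of adenosine to inosine that limits such sensing, had 206 and 125 CPM against 63.9 and 45.3 CPM and rose by 1.60 ± 0.35 (adjusted p = 0.00415). Leaving out normal replicate 2 ended this call (1.33, adjusted p = 0.148), and 14.4% of its 50-base words lie in transcripts of Chrnb2 on the other strand, a gene with at most 24 reads in a library. Zbp1, a sensor of left-handed Z-form nucleic acid that can start necroptosis, was rare in normal tumour CAFs at 3.47 and 1.51 CPM and rose by 4.32 ± 0.52, to 52.1 and 44.8 CPM. The helicase gene Ddx60 rose by 4.00 ± 0.57, from 6 and 25 reads to 162 and 93 reads. Samd9l, which restricts poxviruses and slows translation, had the highest CPM of the set in a single library, with 346 and 222 CPM against 31.2 and 25.9 CPM (3.31 ± 0.33, adjusted p = 2.01e-05). Isg20, an exonuclease for single-stranded RNA, rose by 2.24 ± 0.42 with close replicates, at 44.1 and 40.7 against 8.42 and 9.43 CPM.

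Members that act at membranes or on nucleotides numbered 4, and their log2 fold changes lay close together, from 2.88 to 3.42. Bst2 (tetherin), which holds budding virus on the cell surface, had 118 and 144 CPM against 16.4 and 19.0 CPM and rose by 2.88 ± 0.36. Rtp4, a chaperone-like protein that binds viral replication complexes, rose by 3.42 ± 0.35, from 14.1 and 17.0 to 160 and 174 CPM. In both genes resistant replicate 2 was the higher one. Rsad2 encodes viperin, which makes a chain-terminating nucleotide from CTP, and Cmpk2, the gene beside it, encodes a nucleotide kinase that supplies CTP. These neighbours rose by 3.12 ± 0.48 and 3.03 ± 0.54. Rsad2 had 43.4 and 27.9 CPM against 3.72 and 4.38 CPM, and Cmpk2 49.5 and 20.2 CPM against 3.47 and 4.88 CPM, so that resistant replicate 1 was the higher one for both.

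The remaining members were a mixed group, and all 8 rose. Trim21, the cytosolic antibody receptor, rose by 1.84 ± 0.44 (adjusted p = 0.00677), from 6.69 and 7.41 to 27.4 and 23.5 CPM, but leaving out normal replicate 1 (adjusted p = 0.0934) or 2 (0.0729) ended the call. Trim34a rose by 3.18 ± 0.56, from 6 and 8 reads to 28 and 42 reads. It shares 59.7% of its 50-base words with another gene, chiefly Trim34b, which had 10 and 16 against 4 and 2 reads and was named after its values were seen. Ifi44, whose product restrains cell growth and virus replication, rose by 5.31 ± 0.54 from 2.73 and 1.85 to 122 and 59.1 CPM. Ifi47, a member of the immunity-related GTPases, rose by 4.52 ± 0.44, from 3.72 and 5.22 to 118 and 90.3 CPM. Xaf1, a pro-apoptotic antagonist of XIAP, had the closest resistant replicates, 75.7 and 76.7 CPM against 16.1 and 19.2 CPM. It rose by 2.11 ± 0.38 but lost its call with normal replicate 1 left out (adjusted p = 0.0535). Lgals3bp, a secreted glycoprotein that binds galectins, rose by 2.55 ± 0.31, from 37.4 and 57.4 to 302 and 255 CPM. Ifi27 and Ifi35 were already high in normal tumour CAFs and moved least among the called genes. Ifi27 went from 94.9 and 92.4 to 180 and 250.3 CPM (1.20 ± 0.29, adjusted p = 0.00705). Ifi35 went from 44.3 and 46.6 to 95.5 and 86.3 CPM (0.998 ± 0.34, adjusted p = 0.0419). Both calls ended when normal replicate 1 (adjusted p = 0.143 and 0.460) or normal replicate 2 (0.173 and 0.444) was left out, and that of Ifi35 also with library totals alone as scaling (0.0873).

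**Figure D3:**
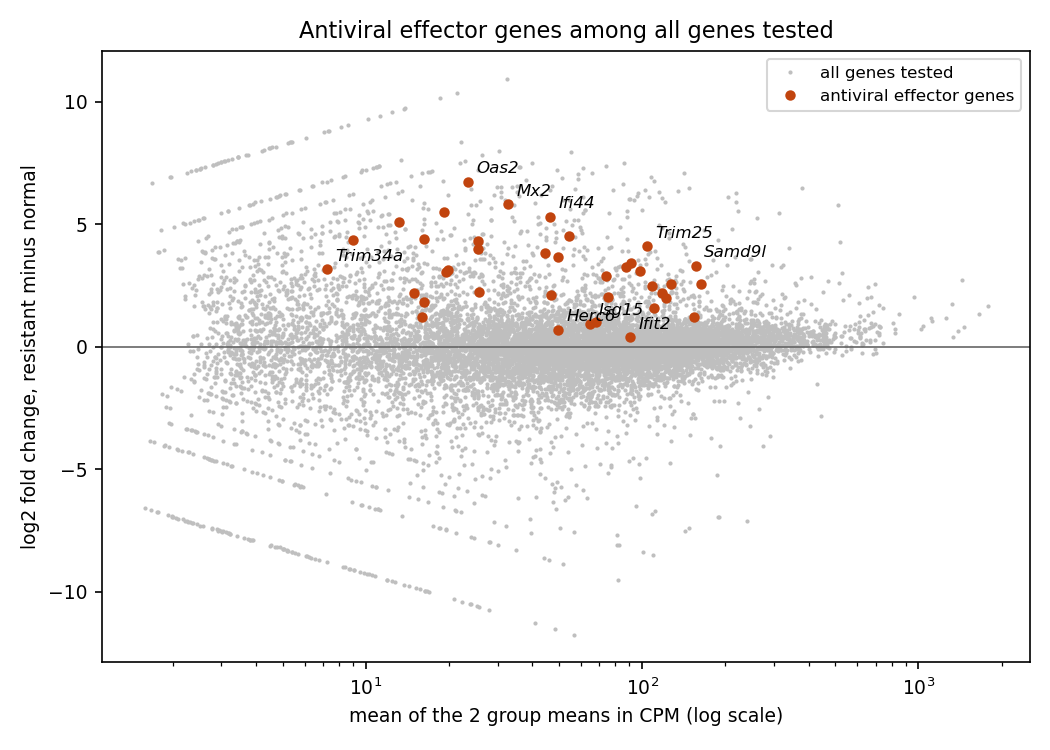
Log2 fold change (resistant minus normal) against the mean of the 2 group means in CPM, on a log axis, for all 12001 genes tested (grey) and the 38 tested antiviral effector genes (red). The red points all lie above 0, from Ifit2 at 0.39 to Oas2 at 6.74, at low as well as high mean levels.

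Levels per length allow the genes to be ranked within a group. Per kilobase of exon, the highest members in resistant tumour CAFs were Ifi27 at 147, Bst2 at 145, Isg15 at 113, Lgals3bp at 98.0 and Ifit1 at 82.2 mean CPM per kilobase. In normal tumour CAFs Ifi27 (63.8) and Isg15 (59.0) led, followed by Ifi35 (26.3), Ifit2 (19.9) and Bst2 (19.6). Oas2 (0.0935), Oas3 (0.112), Oas1g (0.159) and Mx1 (0.208) were lowest there. The spread from the lowest to the highest member was 683-fold in normal and 62.8-fold in resistant tumour CAFs. The lower end in normal tumour CAFs was Oas2, with 2 reads in each library, so the size of that spread is limited by counting. Across the 38 tested genes the log2 fold change fell with the level in normal tumour CAFs (Spearman's rho = -0.82, against -0.23 over all genes tested). The normal libraries enter both measures, and genes are not independent replicates. In addition, 10 of the 38 passed the count filter through the resistant libraries only. Members low in normal tumour CAFs could thus enter only if high in resistant ones, which by itself pulls the value below 0. It is a description only. The 4 members that missed the threshold included Isg15 and Ifit2, which ranked among the 5 highest per length in normal tumour CAFs. Ifi27, Ifi35 and Bst2, the rest of those 5, rose. Herc6 and Parp12, the remaining members that missed it, stood lower there, at 4.09 and 2.41.

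**Figure D4:**
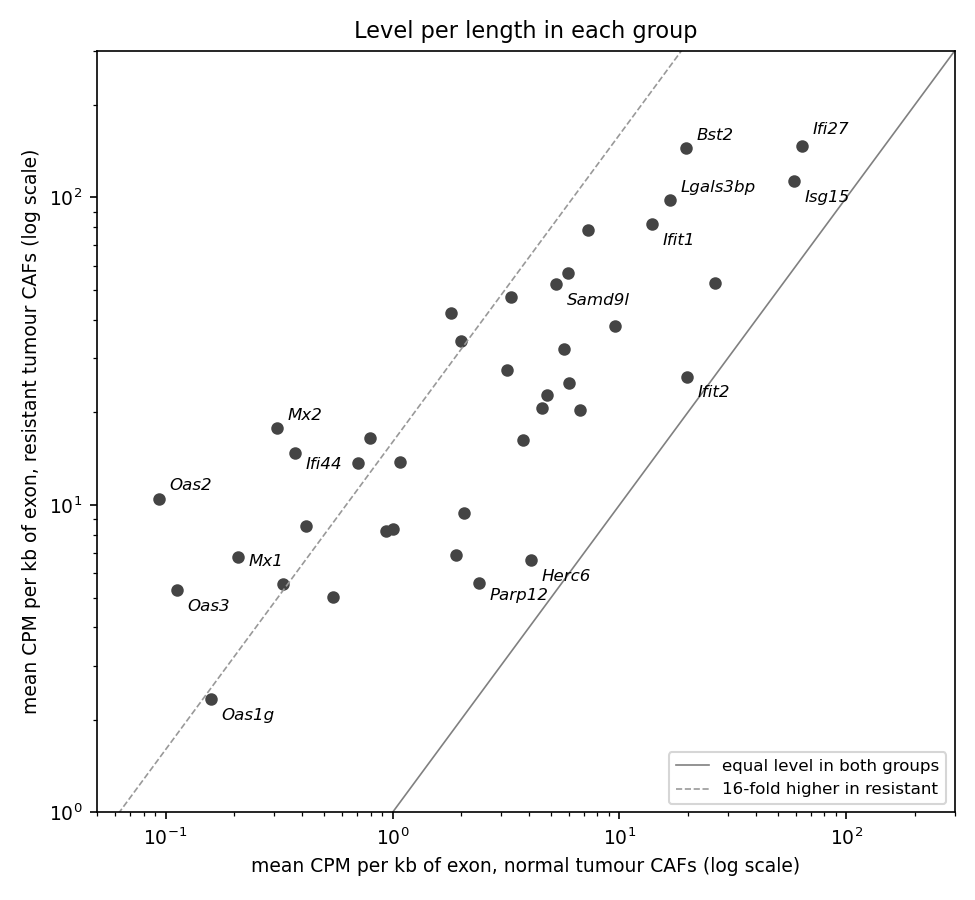
Mean CPM per kilobase of exon of each of the 39 genes in normal (x axis) and resistant (y axis) tumour CAFs, both on log axes. The solid line marks equal levels and the dashed line a 16-fold higher level in resistant tumour CAFs. Oas2, Oas3, Mx1 and Mx2, low in normal tumour CAFs, lie above the dashed line. By this ratio of group means, which can differ slightly from the fitted fold change, so do Ifi44, Ifi47, Oas1a, Oas1b, Zbp1, Trim25 and Ddx60. Oas1g lies just under it, and Ifit2 and Herc6 lie nearest the solid one.

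Promoter windows were read for the ISRE and GAS letters, since most members moved together. RefSeq windows of 300 bases (250 before and 50 from the transcript start, GRCm38.p6) were on hand for 29 members and were not used for the other 10, Mx1, Mx2, Oas1b, Oas2, Parp9, Parp14, Rtp4, Usp18, Zbp1 and Ifi27. The ISRE letters, GAAA and after any 2 bases GAAA again (TTTC, any 2 bases, TTTC on the other strand), were searched on both strands with overlapping matches counted, and were found for 12 of the 29 members, or 41.4%. Among all 27025 genes with a window 3.99% had a match, and among the 1331 called higher that are not members 7.21% had one. The GAS letters, TTC, any 3 bases and GAA, which read the same on both strands, were found for 7 members (24.1%) and for 9.55% of all genes with a window. A match describes letters and shows neither binding nor use. Of the 24 members with a window that rose, 10 held the ISRE letters and 14 did not.

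The 5 called members with the smallest adjusted p among those with a match are shown because they hold the element at different distances, on both strands and as single or tandem copies. Capitals mark each ISRE match; neighbouring or overlapping matches run together. The windows are Ifit3 at chr19:34583279-34583578 (+), Oas3 at chr5:120777610-120777909 (-), Ifit1 at chr19:34640639-34640938 (+), Bst2 at chr8:71537423-71537722 (-) and Oas1a at chr5:120907476-120907775 (-), each printed 5′ to 3′ on the gene's strand.
Ifit3: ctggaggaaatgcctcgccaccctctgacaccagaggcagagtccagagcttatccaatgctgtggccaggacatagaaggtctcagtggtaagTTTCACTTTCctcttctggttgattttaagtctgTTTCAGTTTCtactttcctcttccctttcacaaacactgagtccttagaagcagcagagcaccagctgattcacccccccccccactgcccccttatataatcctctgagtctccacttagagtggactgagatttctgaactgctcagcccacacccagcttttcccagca
Oas3: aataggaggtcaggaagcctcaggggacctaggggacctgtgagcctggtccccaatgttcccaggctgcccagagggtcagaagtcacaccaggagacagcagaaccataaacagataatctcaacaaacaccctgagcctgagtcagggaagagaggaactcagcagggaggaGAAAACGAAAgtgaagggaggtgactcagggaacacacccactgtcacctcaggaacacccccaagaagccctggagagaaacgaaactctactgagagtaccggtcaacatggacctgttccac
Ifit1: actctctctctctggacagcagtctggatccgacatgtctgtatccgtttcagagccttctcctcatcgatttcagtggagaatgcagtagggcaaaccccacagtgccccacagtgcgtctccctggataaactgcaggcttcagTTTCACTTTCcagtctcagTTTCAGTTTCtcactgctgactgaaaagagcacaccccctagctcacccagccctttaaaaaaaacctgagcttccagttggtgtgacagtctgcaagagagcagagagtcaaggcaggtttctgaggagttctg
Bst2: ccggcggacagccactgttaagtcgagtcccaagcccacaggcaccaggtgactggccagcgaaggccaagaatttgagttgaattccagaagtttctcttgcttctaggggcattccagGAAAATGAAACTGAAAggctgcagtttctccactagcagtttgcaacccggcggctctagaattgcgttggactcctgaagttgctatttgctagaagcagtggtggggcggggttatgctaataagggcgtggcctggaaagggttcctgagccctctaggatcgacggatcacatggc
Oas1a: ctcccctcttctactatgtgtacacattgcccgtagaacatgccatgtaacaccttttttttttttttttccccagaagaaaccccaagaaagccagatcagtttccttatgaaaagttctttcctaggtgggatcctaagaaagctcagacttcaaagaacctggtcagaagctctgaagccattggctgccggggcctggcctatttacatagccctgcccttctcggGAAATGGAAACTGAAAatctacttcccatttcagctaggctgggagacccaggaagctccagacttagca

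In Ifit3 and Ifit1 the matches lie on the opposite strand and in pairs, starting 156 and 122 bases and 104 and 85 bases before the transcript start. The 4 matched words of these genes are only 2 different ones, TTTCACTTTC followed by TTTCAGTTTC in each. Bst2 carries overlapping copies as GAAAATGAAACTGAAA from 130 bases upstream. Oas1a has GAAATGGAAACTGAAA from 20 bases upstream, the same 16 letters that stand 18 bases before the start of Oas1g. Oas3 has a single match 75 bases upstream. Further matches in called genes lay in Ddx60 (53 and 19 bases upstream), Rsad2 (120 bases upstream) and, inside the transcribed part of the window, Eif2ak2, Trim21 and Trim34a.

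For contrast, 2 called members without a match and 1 member that was not called are shown. Trim25 (chr11:88999153-88999452, +) and Ifi47 (chr11:49076337-49076636, +) had the smallest adjusted p of the called members whose window lacks the ISRE letters. Isg15 (chr4:156200769-156201068, -), chosen after its values were seen, holds 3 overlapping matches in 22 letters starting 78 bases upstream. That is more than any other member with a window. The difference of Isg15 between the groups narrowly missed the threshold in the edgeR test (adjusted p = 0.0557).
Trim25: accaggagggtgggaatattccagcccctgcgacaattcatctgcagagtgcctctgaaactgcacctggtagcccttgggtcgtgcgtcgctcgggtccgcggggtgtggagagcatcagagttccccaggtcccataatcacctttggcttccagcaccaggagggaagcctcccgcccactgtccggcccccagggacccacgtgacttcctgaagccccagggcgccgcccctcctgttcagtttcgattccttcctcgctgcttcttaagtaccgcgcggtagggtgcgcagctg
Ifi47: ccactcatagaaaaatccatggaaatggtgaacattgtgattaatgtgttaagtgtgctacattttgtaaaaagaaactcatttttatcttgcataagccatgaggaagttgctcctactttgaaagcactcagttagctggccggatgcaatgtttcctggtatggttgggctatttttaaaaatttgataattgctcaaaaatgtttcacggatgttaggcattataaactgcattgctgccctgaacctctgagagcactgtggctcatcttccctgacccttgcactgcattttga
Isg15: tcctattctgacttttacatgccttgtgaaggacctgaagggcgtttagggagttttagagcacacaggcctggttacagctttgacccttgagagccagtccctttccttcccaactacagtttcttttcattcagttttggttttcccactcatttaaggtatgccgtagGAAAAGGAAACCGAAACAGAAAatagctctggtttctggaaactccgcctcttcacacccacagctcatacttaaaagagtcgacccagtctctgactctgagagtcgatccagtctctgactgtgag

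**Figure D5:**
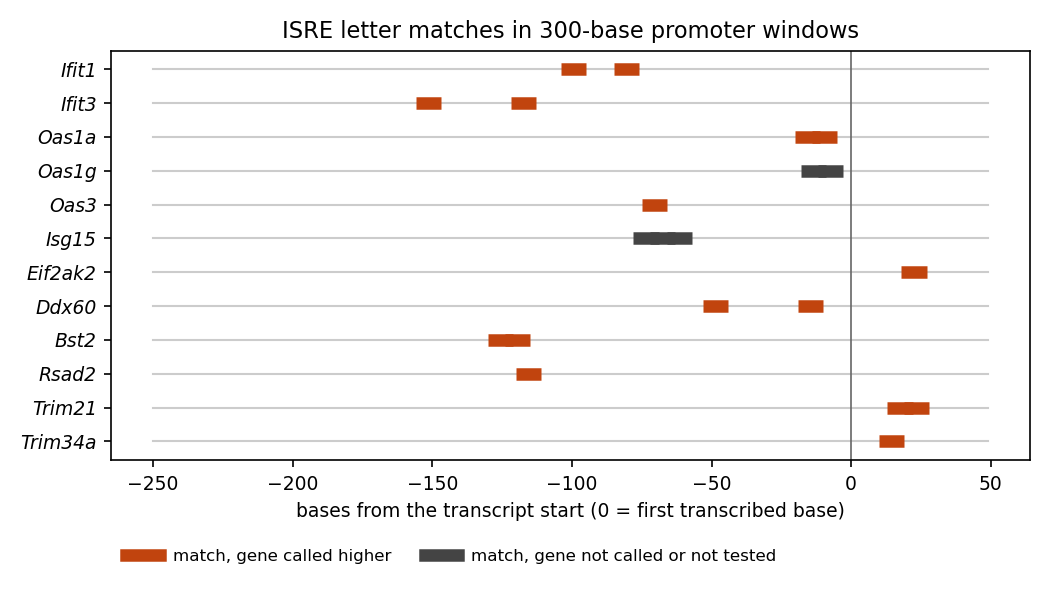
Position of each match to the ISRE letters in the 300-base promoter windows of the 12 members that have one, in bases from the transcript start. Red bars belong to members that rose and dark grey bars to Isg15 and Oas1g, which were not called or not tested; most bars lie within 156 bases upstream of the start.

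The other genes of the interferon pathway were read from the same fit. Of 38 tested pathway genes 20 rose and 1 fell, with a median log2 fold change of 1.11, beside 15.5% higher and 13.9% lower among all genes tested. The number that rose was 11 without normal replicate 1 and 12 without normal replicate 2, while the count of all genes higher went from 1857 to 1198 and 1078. STAT2 and IRF9, which act together at the ISRE, were encoded by genes that rose. Stat2 went from 14.9 and 18.2 to 157 and 131 CPM (3.12 ± 0.36), and Irf9 from 22.1 and 24.6 to 134 and 130 CPM (2.50 ± 0.34). Irf7, which amplifies interferon production, rose most among the transcription factors, from 2.97 and 2.02 to 105 and 60.9 CPM (5.07 ± 0.51, adjusted p = 2.20e-05). These 3 calls held under all 16 alternatives. In contrast Irf3, the factor that is present before interferon acts, had 26.6 and 45.5 CPM against 56.7 and 64.0 CPM. Its difference of -0.74 ± 0.39 on the log2 scale missed the threshold (adjusted p = 0.188) and passed without resistant replicate 2 (-1.18, adjusted p = 0.0318).

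Interferon genes themselves were at or near the limit of detection in both groups. None of 13 ligand genes in the table passed the filter, and 10 of them, Ifnb1 and 6 interferon alpha genes included, had no read in any library. With 0 reads seen, a true level of up to 3 counts remains possible, which by library totals is 0.540 to 1.08 CPM; this covers counting error only. The others were Ifna12, Ifnk and Ifng, with at most 2 reads in a library. Of 5 tested receptor chains 2 rose. Ifnar2 rose by 1.17 ± 0.30 (adjusted p = 0.0113), a call lost on leaving out normal replicate 1 (adjusted p = 0.213) or 2 (0.229). Ifngr2, a chain of the interferon gamma receptor, rose by 0.92 ± 0.32 and only just passed (adjusted p = 0.0491); it missed the threshold under 6 alternatives, such as without normal replicate 1 (0.54, adjusted p = 0.613). Ifnar1, the other chain of the type I receptor, stood at 0.23 ± 0.28 and did not pass. Ifnlr1, a chain of the type III receptor, was too low to be tested, with 0 and 0 reads in the resistant and 2 and 1 in the normal libraries.

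Sensors of nucleic acids moved in both directions. Dhx58, which encodes the RIG-I-like protein LGP2, rose by 4.70 ± 0.45, from 4.21 and 3.03 to 82.2 and 105 CPM. Ddx58, the gene of RIG-I, rose by 2.48 ± 0.35, from 37.7 and 35.5 to 263 and 145 CPM, and the kinase gene Ikbke by 5.10 ± 0.62, from 2 and 3 reads to 44 and 54 reads. Mb21d1, which encodes the DNA sensor cGAS, fell by 1.97 on the log2 scale (SE 0.43, adjusted p = 0.00385), from 39.4 and 54.4 to 12.9 and 11.0 CPM. It fell under every alternative that tested it. The one with length offsets did not, as no exonic length was on hand for Mb21d1. Tmem173, the gene of its downstream adaptor STING, rose by 1.75 ± 0.42, but not past the threshold without normal replicate 1 (adjusted p = 0.166). Among 6 tested inhibitors only Socs3 rose (1.93 ± 0.34), a call that ended when normal replicate 1 was left out (adjusted p = 0.0633). Socs1, the main feedback inhibitor of JAK kinases, had 160 reads in resistant replicate 1 and 20 in resistant replicate 2 against 95 and 176 in the normal libraries. Its log2 fold change of 0.35 ± 0.67 became -1.85 without resistant replicate 1 and 1.19 without resistant replicate 2, so these libraries give it no direction.

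By the calls in the authors' deposited table, 27 of the 39 members were called higher and none lower, where 4.89% of the 15879 genes of that table were called higher. All calls there have adjusted p-values below 0.1 and sizes of 2 or more on the log2 scale. The authors' statistic counts only the part of a log2 fold change beyond 1, so their p-values test against a 2-fold change. Oasl1, with 2.16 and an SE of 0.59, had a statistic of 1.97 there (adjusted p = 0.358). The main test here was against no change, so the calls answer different questions. All 27 also rose here. The 7 genes that rose here without the authors' call were Oasl1, Eif2ak2, Adar, Isg20, Trim21, Ifi35 and Ifi27. In the authors' deposited table their log2 fold changes ran from 0.97 for Ifi35 to 2.22 for Isg20. With glmTreat, which also tests against a 2-fold change, Adar, Trim21, Ifi35 and Ifi27 of these 7 did not pass here.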

How the data were processed

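Read counts per gene symbol were deposited as whole numbers by the authors. The tools named in the submitters' processing notes are HTSeq 0.7.2, TopHat2 2.1.1, Picard 1.62, DESeq2 and bcl2fastq 2, and the build is mm9. Not given in the sources used here: strand and parameters. The labels describe both a TruSeq and a SMART-seq2 preparation and do not assign them to libraries. In the authors' deposited table, log2 fold changes and their SE, a statistic (score), p-values and the signal (mean of counts divided by size factors) are given per gene; the statistic is 0 for 4 members. Normalized counts were not used.

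Counts were tested with edgeR 4.0.16 (R 4.3.3): filterByExpr with a minimum count of 10 (2.94 CPM in 2 libraries), TMM, quasi-likelihood F test with the group as only term, and Benjamini-Hochberg adjustment over 12001 genes; an adjusted p under 0.05 counts as called. SE is the log2 fold change divided by the square root of F. The procedure was tested on simulated data. Exonic lengths (GENCODE M21) and promoter windows (RefSeq) are of GRCm38, used as lengths and letters only. Shared 50-base words were counted over GENCODE transcripts on both strands. Every member is reported; per-library values are given for called members, for other tested members averaging 10 CPM or more, and for those with at least 5 reads in a library. Promoters shown are those of called members with the smallest adjusted p, with and without an ISRE match, and that of Isg15. Members and lists were chosen with earlier results of these data known. Some results on genes outside the member list are not reported here.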

Additional observations from a re-analysis of the deposited data

How the results depend on the processing

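No member had a negative log2 fold change in any of the 16 alternatives that tested it, and 30 to 36 members rose in each, against 34. The lowest count, 30, came with glmTreat and without normal replicate 1 or 2. Against a 2-fold change glmTreat gave 1066 for all genes higher, 839 for all genes lower and 11 for pathway genes higher. Pathway genes lower numbered 2 with upper-quartile scaling, library totals alone, no low-count filter, limma-voom, the replicate block and abundance offsets. Leaving out 1 library gave 1078 to 2024 genes higher, 951 to 2323 lower, 11 to 21 pathway genes higher and 1 to 3 lower. Socs1 reversed to -1.85 (adjusted p = 0.0212) without resistant replicate 1 and was 1.19 (0.0339) without resistant replicate 2; the cause was not tested. Oas1g was tested, and enters the member counts, without a low-count filter (called, adjusted p = 1.25e-04) and without resistant replicate 2 (called, 0.0278), normal replicate 1 (called, 0.00160) or normal replicate 2 (not called, 0.105). The 50-read filter left Oas1b, Mx1 and Trim34a untested. Library totals alone shifted all genes by -0.14, with 1736 higher and 2150 lower, and gave a member median of 2.92. Replicates share only a number (correlation of replicate differences 0.20 over genes); with the replicate block 2257 genes rose, 2267 fell and 36 members rose. A group left with 1 library borrows its spread from the group with 2. Members with under 10 reads in the normal libraries have folds limited by counting.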

Other observations

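Replicates within the resistant group differed in one direction for most members. Of the 38 tested members 31 were higher in resistant replicate 1 than in replicate 2, with a median log2 ratio of 0.37 against 0.052 over all genes tested with reads in both. Cmpk2 (1.29), Mx1 (1.21), Oas3 (1.16), Ifi44 (1.05) and Oas2 (1.02) had the largest ratios, while Trim34a (-0.53), Ifi27 (-0.48) and Bst2 (-0.28) leaned to replicate 2. Across the 38 genes the ratio correlated with log2 exonic length at r = 0.50. The points share the same 2 libraries and genes are not independent replicates. Neither the share of all genes higher in resistant replicate 1 nor this correlation over all genes was worked out. Whether the count of 31 and the correlation are particular to the members was therefore not tested. In the normal group 17 members were higher in replicate 1 and 21 in replicate 2, with a median of -0.053.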
